A study of Mus musculus with 6 samples.

Results

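The wells described here are single mouse embryonic stem cells that had spent 4 days in a medium for priming, taken from the lines R1 and IB10. They were chosen as every primed well with 6000 or more counts outside the ERCC spike-in RNAs. This left 274 of 376 primed wells, 104 of 188 from R1 and 170 of 188 from IB10, and 947 of the 1128 wells of all 3 cultures passed the same minimum. R1 and IB10 are established mouse lines, and each gave 1 library per culture. All cells grew without serum in N2B27 medium with LIF on plates coated with gelatin and fetal calf serum. The primed culture (primed_4d) added FGF2 at 12 ng/ml, Activin A at 20 ng/ml and, to inhibit WNT secretion, IWP2 at 2 µM, at passage 24 for R1 and 28 for IB10. The naive culture (LIF_2i) had 3 µM CHIR99021, which inhibits GSK3, and 0.1 µM PD325901, which inhibits MEK, at the same passages. The rosette_LIM culture had IWP2 at 2 µM and PD325901 at 0.1 µM. It ran for 6 passages in R1 and 5 in IB10, and was collected at passages 28 and 33. LIF was therefore in the primed medium too.

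Embryonic stem cells in the naive state resemble the epiblast before implantation and express factors such as Klf2, Esrrb and Zfp42. FGF and Activin signalling move them through a formative to a primed state, in which the new DNA methyltransferases Dnmt3a and Dnmt3b and factors such as Pou3f1 and Otx2 come on while the core factors Pou5f1 and Sox2 stay active. Cells of 1 dish need not make this move at the same time, and the spread between wells records how far each cell stands from its neighbours, beside cell cycle phase, metabolism and stress.

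SORT-seq, which sorts 1 cell per well and counts the 3′ ends of its transcripts with molecular identifiers (UMIs), gave a median of 45416 counts per kept R1 well (6442 to 92529) and 29970 per kept IB10 well (6005 to 90020). The median well showed 6699 genes in R1 and 5814.5 in IB10. The wells nearest the minimum held 6442 counts inside and 4532 outside it in R1, and 6005 inside and 5826 outside it in IB10. Of the wells that missed it, 84 were R1 and 18 were IB10, and ERCC RNA made up 33.5% and 11.3% of their counts, against 1.48% and 1.55% in the kept wells. The other 4 libraries had medians of 31726 to 42493 counts, and 1 LIF_2i R1 well held 590866. Well numbers served as cell barcodes, and 94 numbers were kept in both primed libraries. Same-numbered wells of the lines correlated by a median of 0.772, and all pairs of wells between the lines by 0.765. No doublet caller was run. In 1 R1 well (number 55, 16618 counts), 53.9% of the counts fell on 6 loci (A630089N07Rik, Gm17821, Gm10785, Vmn2r55, Kcnq1ot1 and Grk4) that took a median of 0.276% in R1. The shares of all other genes are lowered in that well. It was kept, and its part is given with some of the results below. With 1 library per line and culture, p-values below measure only the spread between libraries.

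All 5 marker genes of the primed state were higher in the primed culture than in both others. Pou3f1, a POU-domain transcription factor of the formative epiblast, stood at 254 CPM (counts scaled to one common library total) in R1 and 269 in IB10. In LIF_2i it was at 5.28 and 3.08 CPM, and in rosette_LIM at 7.73 and 8.39 CPM. The library averages of the cultures were apart, although single wells reached 1.61 counts per 10000 in LIF_2i and 1.80 in rosette_LIM, and the log2 differences were 6.00 ± 0.19 (SE; edgeR adjusted p = 5.63e-12) and 5.00 ± 0.18 (edgeR adjusted p = 2.62e-11). Dnmt3b, which sets new DNA methylation, had 873 and 823 CPM in primed cells, 77.5 and 89.8 in LIF_2i and 32.1 and 55.8 in rosette_LIM. Lef1, a transcription factor that works with beta-catenin, had 73.0 CPM in R1 and 145 in IB10, so the lines were farther apart than for Pou3f1, yet both lay above the 1.55 to 9.83 CPM of the other cultures. The tight junction gene Cldn6 had 98.4 and 74.8 CPM against 3.59 to 8.20 CPM elsewhere. The growth factor gene Fgf5 had 14.4 and 9.33 CPM against 0.147 to 1.03 CPM elsewhere. Their log2 differences from LIF_2i were 3.37 ± 0.16, 4.16 ± 0.43, 4.21 ± 0.26 and 5.32 ± 0.56 for Dnmt3b, Lef1, Cldn6 and Fgf5, with edgeR adjusted p from 2.38e-10 to 1.68e-06. The size for Lef1 depended on single libraries: it was 6.14 without the R1 and 2.81 without the IB10 LIF_2i library, and 4.95 without the R1 and 3.47 without the IB10 primed library. Fgf5 was at 4.47 without the R1 and 6.48 without the IB10 LIF_2i library. On GRCm38, Pou3f1 lies on chromosome 4 from 124656807 to 124660655, Dnmt3b on chromosome 2 from 153649450 to 153687730 and Fgf5 on chromosome 5 from 98254184 to 98277030. Lef1 lies on chromosome 3 from 131110471 to 131224356 and Cldn6 on chromosome 17 from 23679249 to 23682446.

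Over all 12078 genes tested, 18.4% were higher and 19.9% lower in primed cells than in LIF_2i by edgeR's test, and 17.3% were higher and 19.3% lower than in rosette_LIM. Both comparisons use the same primed libraries. Of the 22 formative and primed genes listed, 20 rose against LIF_2i and 17 against rosette_LIM, and 0 fell. Their median log2 differences were 2.55 and 2.46, beside −0.014 and −0.0056 for all genes. Of 20 naive genes, 18 fell in each comparison, with medians of −2.37 and −2.24. The 12 core genes were split, with 6 higher and 4 lower than in LIF_2i. Without the R1 LIF_2i library the counts for LIF_2i over all genes were 1336 higher and 1560 lower, and without the IB10 LIF_2i library 1436 and 1593, against 2226 and 2400 with all 6 libraries.

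Lists of markers of other cell types ranged from near 0 to over 200 CPM in sum. The neuroectoderm list, which includes Sox11, summed to 249 CPM in R1 and 187 in IB10, against 114 to 133 in LIF_2i and 242 to 274 in rosette_LIM; 5 of 7 tested were higher and 2 lower than in LIF_2i (edgeR), beside 18.4% and 19.9% of all genes. The primitive endoderm list summed to 207 and 132 CPM, against 268 to 451 in the other libraries, mostly from the matrix genes Sparc (88.3 and 59.2 CPM) and Lamb1 (65.6 and 44.7 CPM). The 11 mesendoderm genes together reached 9.83 CPM in R1 and 5.33 in IB10, with Sox17 and Cer1 at 0. The 7 feeder fibroblast genes reached 11.8 and 13.1 CPM, with Col3a1, Postn and Lum at 0. The trophectoderm and simple keratin list summed to 43.9 and 34.4 CPM, with Elf5 at 0. The 7 genes found of the 2-cell-like list summed to 29.4 and 17.1 CPM, and 1 R1 well (number 135) held 43.5 of their counts per 10000 where the next R1 well held 2.10.

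**Figure D1:**
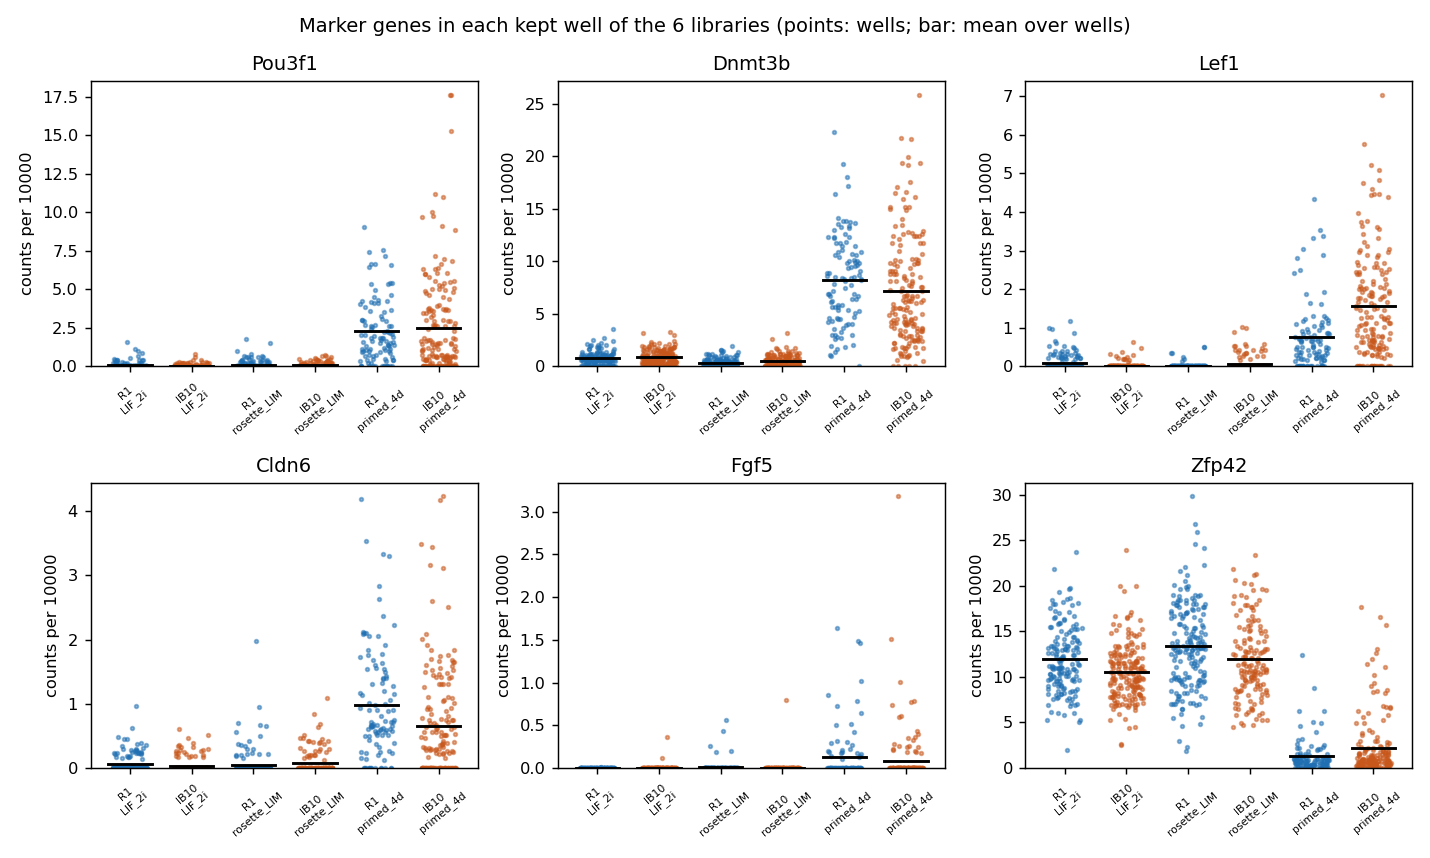
Counts per 10000 of the 5 marker genes and Zfp42 (y axes, linear) in each kept well of the 6 libraries (x axis, line and culture; points are wells, bars are means over wells). Primed wells carry most of the marker counts but start at 0, and Zfp42 is low in most primed wells and high in a few, up to 12.4 in R1 and 17.7 in IB10.

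Within the primed culture these markers ranged widely from well to well. Pou3f1 ran from 0 through a median of 1.77 to 9.07 counts per 10000 in R1, and from 0 through 1.29 to 17.6 in IB10. Dnmt3b ran from 0 through 8.29 to 22.3 in R1, and from 0 through 6.06 to 25.9 in IB10. In both lines the lowest well was at 0 while the middle of the culture was clearly above it. Lef1 had a median of 0.502 and a highest well of 4.34 in R1, against 1.25 and 7.04 in IB10. Cldn6 had a median of 0.696 and a highest well of 4.19 in R1, against 0.335 and 4.23 in IB10. Fgf5 was too rare to follow by cell: its median was 0 in both lines, and 1 well held 36.8% of its IB10 counts.

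Counting alone makes rare transcripts vary, so the spread was expressed as the coefficient of variation (CV) between wells that remains once Poisson counting noise and well size are taken out. By this measure Pou3f1 had a CV of 78.4% in R1 and 96.2% in IB10, Lef1 of 89.5% and 74.4%, Cldn6 of 62.1% and 89.5%, and Dnmt3b of 48.2% and 60.2%. The median gene had 31.3% and 30.8%. ERCC spike-ins, which are added in equal amounts and so carry only technical spread, had medians of 4.08% (21 spikes, R1) and 1.05% (17 spikes, IB10), with highest values of 63.4% and 18.9%. For spikes the well size was the ERCC total, which itself had a CV of 26.2% and 24.8%. Of the spikes, 9 in R1 and 7 in IB10 were at 0%. The medians therefore leave out technical spread that all spikes of a well share. Of 4610 genes with a mean of 1 or more counts per well in both lines, 374 (8.11%) reached 50% in both lines. R1 alone had 15.3% of genes at that size and IB10 alone 13.8%. Of the R1 genes, 53.1% also reached it in IB10, and of the IB10 genes 58.6% in R1. Across genes, which are not independent replicates, the CVs of the lines had a Spearman rho of 0.517. The share called was 12.0% among genes with means of 1 to 2 counts and 4.26% among the 47 genes with 100 or more. With every well thinned to 6000 counts 611 genes were called, of which 203 were among the 374; without R1 well 55 there were 375, of which 373 were among them.

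**Figure D2:**
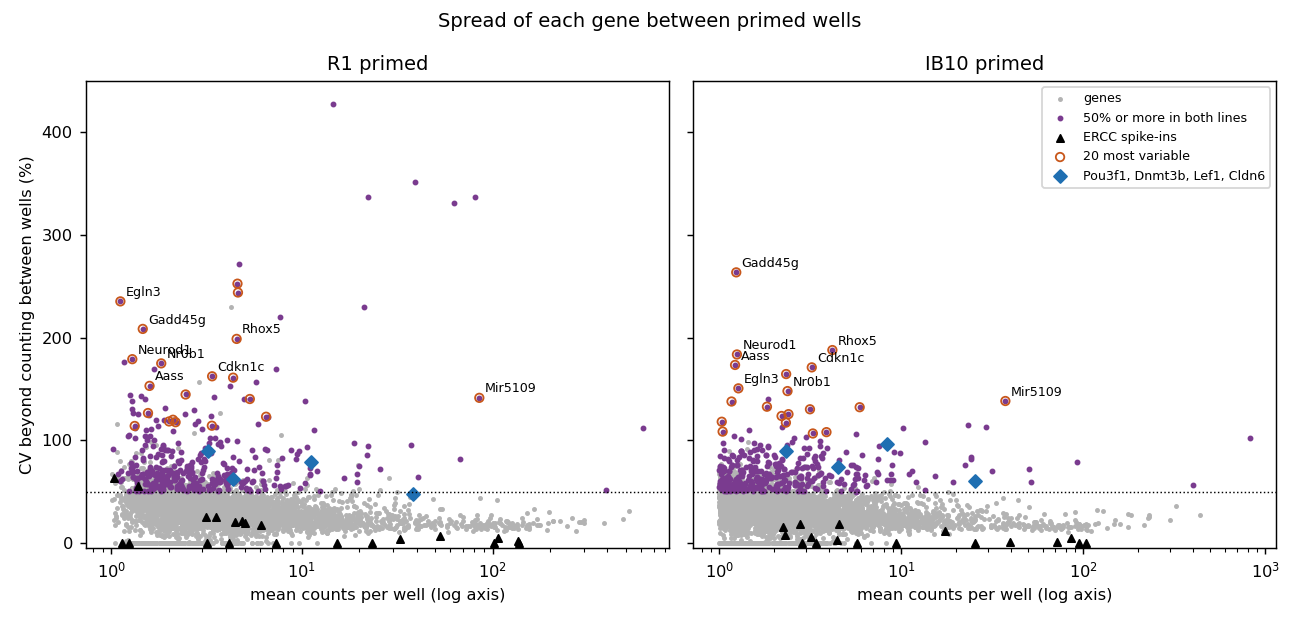
CV beyond counting noise (y axis, percent) against the mean counts per well (x axis, log scale) for each gene in R1 (left) and IB10 (right). Purple points reach 50% (dotted line) in both lines, circles mark the 20 most variable genes, diamonds 4 marker genes and triangles ERCC spike-ins, whose medians are 4.08% and 1.05%. In R1, Grk4 stands at 427% and A630089N07Rik at 352%, and both have their highest value in well 55.

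Among the 26 most abundant genes named here, the ribosomal RNAs Rn45s and mt-Rnr2 reached a CV of 50% in both lines, and the others lay between 11.9% (Rpl4 in R1) and 42.0% (Dppa5a in R1). Each UMI stands for 1 transcript end, so shares of counts were compared between genes without a length correction. Rn45s, the ribosomal RNA precursor, had the largest share, 1.39% of all counts in R1 and 2.67% in IB10, and it was also uneven: single wells ran from 0.159% to 7.74% in R1 and from 0.172% to 10.4% in IB10, with CVs of 112% and 102%. Next came mitochondrially encoded RNAs. The ATP synthase subunit mtAtp6 took 1.09% and 1.42%, the cytochrome oxidase subunit mtCo1 1.172% and 1.040%, and the mitochondrial ribosomal RNA mt-Rnr2 0.896% and 1.30%, the last with CVs of 52.0% and 56.3%. The mitochondrial messenger and transfer RNAs together made up 6.58% and 7.28% of the counts. The 88 genes for cytosolic ribosomal proteins made up 17.7% and 15.8%, against 14.4% to 15.2% in the 4 libraries of the other cultures; 29 of 86 tested passed as higher and 2 as lower than in LIF_2i (edgeR), beside 18.4% and 19.9% of all genes.

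Outside those groups the largest shares belonged to the following genes. Eef1a1, the translation elongation factor, took 0.683% and 0.518%, the nucleolar protein Npm1 0.556% and 0.571%, and the chaperones Hsp90aa1 0.450% and 0.482% and Hsp90ab1 0.438% and 0.438%. Ferritin light chain Ftl1 (0.376% and 0.417%), the chaperone Hspa8 (0.343% and 0.383%), Tpt1, Ptma, the pyruvate kinase Pkm, Set, the tubulin Tuba1b and the elongation factors Eef1b2 and Eef2 lay between 0.236% and 0.383%. Dppa5a, a naive pluripotency gene, was among these 15 with 0.240% and 0.291%. It ran from 4.62 through 24.3 to 83.1 counts per 10000 in R1 and from 12.1 through 30.6 to 102 in IB10, so each primed well still held it. Its level was 0.19 ± 0.11 below LIF_2i on the log2 scale and did not pass (edgeR adjusted p = 0.183). The 15 largest genes together held 11.2% and 13.5% of the counts, and the 100 largest 33.4% and 34.0%.

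**Figure D3:**
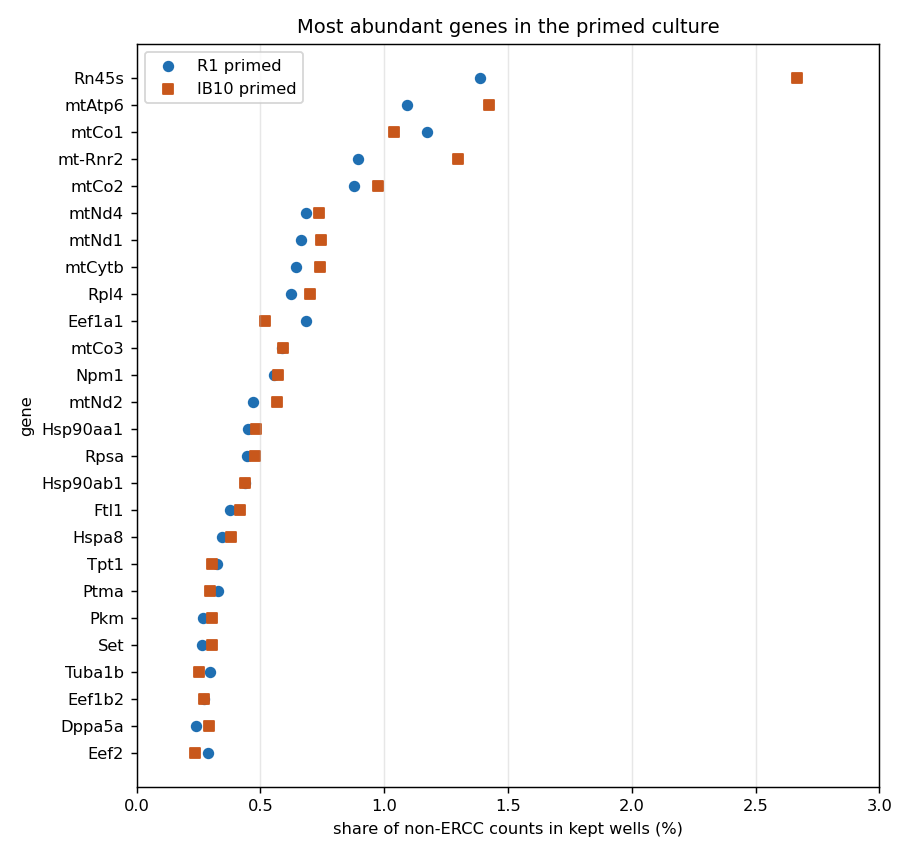
Share of the non-ERCC counts of all kept wells (x axis, percent) for the 26 genes that are among the 15 largest overall or the 15 largest outside mitochondrial and ribosomal protein genes (y axis), in primed R1 (circles) and IB10 (squares). Rn45s stands highest in both lines, at 1.39% and 2.67%.

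The genes with least spread were taken among genes with means of 10 or more. The RNA-binding protein Hnrnpab had a CV of 10.3% in R1 and 13.2% in IB10, the chromatin protein Banf1 12.5% and 13.3%, Fkbp1a 13.8% and 9.15%. The ribosomal protein gene Rpl15 ran from 18.1 to 45.8 counts per 10000 in R1 and from 22.3 to 51.5 in IB10, a range in which no well lacked it. Rpl8, the histone chaperone Nap1l1, C1qbp, Btf3 and Hsp90ab1 were also among the 10 steadiest genes, each at most 14.4% in either line.

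The 20 genes with most spread included 4 naive, 2 formative and primed, 2 imprinted and 1 germline gene of the lists. Gadd45g, a stress and differentiation gene, had a CV of 209% in R1 and 264% in IB10; its median was 0 in both lines and its highest wells held 5.96 and 6.76 counts per 10000. The homeobox gene Rhox5 had 199% and 188%, with medians of 0.387 and 0.551 and highest wells of 9.57 and 12.6. The neurogenic factor Neurod1 had 179% and 184%, the imprinted cell cycle inhibitor Cdkn1c 162% and 171%, and Aass, an enzyme of lysine breakdown, 153% and 173%. The median of each was under 1 count per 10000, so the spread came from wells above it. Egln3, an oxygen sensor, had 235% and 151%, and Hes6, a Notch pathway repressor, 114% and 165%. Fgf15 had 120% and 118%, the repressor Foxd3 118% and 124%, the growth arrest gene Btg2 127% and 138%, and the kinase gene Plk2 114% and 108%. The imprinted long RNA Rian had 123% and 130%. The last of the 20, Gm10664 (145% and 133%) and Mir5109 (141% and 138%), are loci of no role given here, and Mir5109 was treated as ribosomal RNA where that was left out of well sizes. Some of this rested on 1 well. Without its top well the R1 CV was 89.9% for Egln3, 83.9% for Cdkn1c, 124% for the hormone precursor gene Trh (244% with it) and 135% for the germline gene Tex19.1 (253% with it), and Gadd45g had 137% in R1 and 170% in IB10.

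Naive genes made up 4 of those 20, and 9 of the 10 naive genes that could be measured reached 50% in both lines, beside 8.11% of all genes. Nr0b1, an orphan nuclear receptor, had CVs of 175% and 148%, the threonine dehydrogenase Tdh 161% and 125%, Zfp42 (Rex1) 140% and 132%, and Spp1 118% and 117%. Zfp42 ran from 0 through 0.806 to 12.4 counts per 10000 in R1 and from 0 through 0.930 to 17.7 in IB10. The LIF_2i libraries held 1189 and 1062 CPM on average, while the primed libraries held 121 and 191 CPM (log2 −2.84 ± 0.17, edgeR adjusted p = 2.92e-09). Esrrb had 105% and 140%, the Krüppel-like factors Klf2 140% and 103% and Klf5 87.9% and 92.9%, Fbxo15 125% and 95.4%, and Fgf4 68.2% and 84.4%. Dppa5a was the exception, at 42.0% and 30.5%. Of the core factors, 0 of 11 measured reached 50% in both lines, and Pou5f1 had 49.6% and 47.4%, Sox2 47.0% and 47.9% and Utf1 28.5% and 31.4%. Of the 13 formative and primed genes measured, 11 reached it, among them the kinase gene Pim2 (74.5% and 112%), the zinc finger gene Zic2 (59.4% and 88.7%) and Dnmt3a (59.4% and 65.6%), while Tead2 had 30.7% and 28.7%.

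The naive genes varied together from well to well. Correlations below are Pearson's r across the wells of 1 line (104 in R1, 170 in IB10) on counts standardized for well size and counting noise; the wells of a line share a library, so r is a description and carries no p. Zfp42 correlated with Spp1 by 0.61 in R1 and 0.54 in IB10, with Tdh by 0.66 and 0.49, with Klf2 by 0.68 and 0.43, and with the small heat shock gene Hspb1 by 0.70 and 0.50. Among the 45 pairs of the naive list, 20 reached 0.3 in both lines, where 0.0744% of the pairs of all genes with means of 2 or more did, and the median r was 0.401 in R1 and 0.278 in IB10, beside 0.008 and 0.003 for pairs of all genes with means of 1 or more. The formative and primed genes moved together less than the naive genes did. Of their 78 pairs, 2 reached 0.3 in both lines, beside 0.0744% of all pairs. Their median r was 0.053 and 0.056, above the 0.008 and 0.003 for pairs of all genes. Dnmt3b went with Pim2 (0.37 and 0.64) and the cell surface gene Emb (0.37 and 0.47), and Cldn6 with Dnmt3b by 0.24 and 0.49. Lef1 and Cldn6 had no partner at 0.3 in both lines, and Pou3f1 had no positive partner at that size.

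Wells high in naive genes tended to be low in primed genes. Zfp42 and Dnmt3b correlated by −0.469 in R1 and −0.449 in IB10, Hspb1 and Dnmt3b by −0.438 and −0.433, Tdh and Dnmt3b by −0.44 and −0.33, and Zfp42 and Pou3f1 by −0.33 and −0.31. The summed naive genes ran from 9.84 through 30.7 to 117 counts per 10000 in R1 and from 16.03 through 39.6 to 143 in IB10. Dppa5a alone made up most of this sum, with 2400 of 3211 CPM in R1 and 2905 of 3889 CPM in IB10. The summed primed genes ran from 4.81 through 30.6 to 55.4 and from 7.11 through 26.6 to 68.9. The R1 low of 4.81 was that of well 55, where 53.9% of the counts fell on 6 loci. The scores of both lists (sums of standardized counts) correlated by −0.408 and −0.419. The log total of the well correlated with the primed score by 0.169 and 0.092, with the naive score by −0.147 and −0.198, and with Dnmt3b by 0.234 and 0.323, and its part in the result was not tested. With wells thinned to 6000 counts, Zfp42 and Dnmt3b had an r of −0.178 in the line nearer 0.

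**Figure D4:**
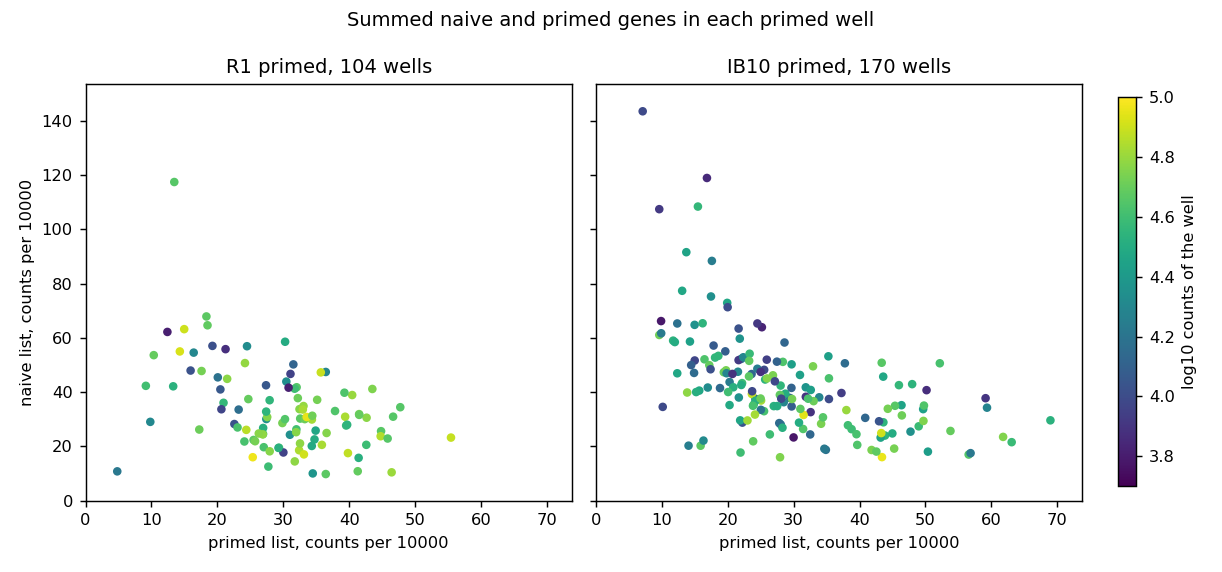
Summed counts per 10000 of the naive list (y axis) against those of the formative and primed list (x axis) in each kept primed well of R1 (left) and IB10 (right); colour is the log10 counts of the well. Wells with most naive counts, up to 117 and 143, stand at the upper left of each panel. Over all wells of each line, most of the naive counts are those of Dppa5a.

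Whether the primed culture is more uneven than the others was tested with limma on 1 CV per gene and library, each well thinned to 6000 counts so that depth was equal. No gene passed: 0% of 1540 genes were called higher or lower against LIF_2i or against rosette_LIM. At an unadjusted p under 0.05, 87 genes were higher and 30 lower against LIF_2i, and 71 and 47 against rosette_LIM. Among the named genes, the largest differences from LIF_2i were those of Tdh and Klf2. Zfp42 had thinned CVs of 98.0% and 137% in primed R1 and IB10, 29.9% and 22.3% in LIF_2i, and 34.5% and 33.9% in rosette_LIM. Tdh had 191% and 152%, 28.03% and 27.7%, and 52.9% and 31.8%. Klf2 had 108% and 137%, 31.6% and 0%, and 21.5% and 42.8%, and Hspb1 78.5% and 73.0%, 32.4% and 22.4%, and 23.6% and 24.2%. For all 4 genes both primed libraries lay above all 4 others. On the log2 scale of the squared CV, Tdh was 4.53 ± 0.68 and Hspb1 2.32 ± 0.68 above LIF_2i, and neither passed (limma adjusted p = 0.557 and 0.568), beside a median of 0.29 over all genes. Pou5f1 had 55.3% and 41.9% in primed cells against 24.9% to 44.2% elsewhere. All 4 genes were also less abundant in primed cells (Tdh 99.0 and 77.5 CPM against 610 and 648 in LIF_2i), and the part of their level in the CV was not tested. The loci concentrated in R1 well 55 also had large differences, 3.66 for Kcnq1ot1. On unthinned counts 5 genes were called higher against LIF_2i (limma adjusted p = 0.00338 for Zfp42, 0.00409 for Tdh, 0.0238 for Klf2 and Hspb1, 0.0333 for Gpx4), and Zfp42 alone against rosette_LIM (0.0134).

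Of 3533810 gene pairs tested among 2659 genes with means of 2 or more counts in both lines, 2629 (0.0744%) had an r of 0.3 or more in both lines and 326 (0.00923%) an r of −0.3 or less. R1 alone had 24024 positive pairs and IB10 7077. The cut was the same for 104 R1 and 170 IB10 wells, and the part of the number of wells in this difference was not tested. Of the R1 pairs 10.9% were also positive in IB10, and of the IB10 pairs 37.1% in R1. Called pairs were frequent within known groups: 55 of 91 mitochondrial pairs (60.4%), 918 of 2775 ribosomal protein pairs (33.1%) and 63 of 496 pairs of S and G2/M phase genes (12.7%) were positive in both lines, against 829 of 3219453 pairs (0.0258%) outside these groups. The negative count was 162 when well sizes left out the 50 most abundant genes and 191 when they left out ribosomal RNA. Thinning to 6000 counts left 228 positive and 25 negative pairs, and log2 values in place of standardized counts gave 4994 positive ones. Without R1 well 55 there were 2453 and 408.

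The closest pairs joined a set of loci, most on different chromosomes, of which some share sequence. A630089N07Rik correlated with the pseudogene Gm17821 by 0.956 in R1 and 0.940 in IB10, with Gm10785 by 0.927 and 0.928, and with the vomeronasal receptor locus Vmn2r55 by 0.923 and 0.873. Kcnq1ot1, the long antisense RNA of an imprinted domain, correlated with Gm17821 by 0.931 and 0.893 and with Grk4 by 0.924 and 0.747. Where loci share sequence, reads can be split between them and the counts are uncertain. Only A630089N07Rik and Kcnq1ot1 were compared, and the first 30 bases of a 63-base run that they share are printed. Whether reads fell in this run, and its part in the correlations, was not tested. The run lies on the minus strand of GRCm38, at chr16:98063292-98063321 in the last exon of A630089N07Rik and at chr7:143229016-143229045 in the single exon of Kcnq1ot1. The 30 bases occur in transcripts of 4 of 55341 GENCODE gene names and the full run in 3.
shared run: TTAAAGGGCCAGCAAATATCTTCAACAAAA
In R1 1 well held much of this group: well 55 carried 36.2% of all R1 Kcnq1ot1 counts and 37.8% of those of A630089N07Rik. The CV of Kcnq1ot1 was 337% with that well, 54.8% without it and 59.8% in IB10. The pairs did not need it, and without the well that weighed most in each line A630089N07Rik and Gm17821 still correlated by 0.931 and 0.934.

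Mitochondrial messages formed the second block. They are cut from long common transcripts, and mtAtp6 correlated with mtCo3 by 0.881 and 0.878, with mtCo2 by 0.870 and 0.904 and with mtNd1 by 0.825 and 0.863. The mitochondrial ribosomal RNAs mt-Rnr1 and mt-Rnr2 correlated by 0.807 and 0.834. None of the 12 measured mitochondrial messages reached a CV of 50% in both lines (mtAtp6 23.1% and 27.1%, mtCo1 31.2% and 36.3%). Of all genes 8.11% did, and of those with means of 100 or more counts 4.26%, so few calls are found at such abundance. The sum of the 13 listed messages ran from 290 to 1270 counts per 10000 in R1 and from 219 to 1577 in IB10. In IB10 they also moved with well size: the r with the log total was −0.418 for mtAtp6, −0.376 for mtCo3, −0.380 for mtCo2 and −0.402 for mtNd1, against −0.187, −0.143, −0.185 and −0.205 in R1, and the part of well size in these pairs was not tested. Of the 75 ribosomal protein genes measured, 2 (Rpl39l and Rpl10l) reached 50%, beside 8.11% of all genes and 5.93% of those with means of 30 to 100. Pairs of ribosomal protein genes had a median r of 0.421 in R1 and 0.222 in IB10. Pou5f1 went with Rpsa of this block by 0.47 and 0.44. It went more closely with genes outside the block, Prmt1 (0.57 and 0.53) and the imprinted long RNA Rian (0.64 and 0.51).

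Cell cycle genes also varied together. Of 19 G2/M genes, all measured, 7 reached a CV of 50% in both lines (Ube2c, Nusap1, Cdc20, Aurka, Plk1, Cenpe and Cenpf), beside 8.11% of all genes, and 60 of their 171 pairs reached 0.3, beside 0.0744% of all pairs. Ube2c, the ubiquitin-conjugating enzyme of the anaphase-promoting complex, had a CV of 63.6% and 70.4%, and correlated with Ccnb1 by 0.74 and 0.61, with the tubulin Tuba1c by 0.65 and 0.68 and with the importin Kpna2 by 0.66 and 0.63. It ran against the replication helicase gene Mcm4 (−0.33 and −0.34). None of 13 S phase genes reached 50%, and the S and G2/M scores correlated by −0.386 and −0.354. Late cell cycle genes are known to be controlled through CCAAT boxes, bound by NF-Y, and the cell cycle homology region TTTGAA, so the Ube2c promoter is shown. It covers chr2:164769679-164769928 of GRCm38.p6 (RefSeq), the 250 bases before the start on the plus strand; capitals mark CCAAT on either strand and TTTGAA, here on the minus strand at 29 bases before the start.
Ube2c promoter: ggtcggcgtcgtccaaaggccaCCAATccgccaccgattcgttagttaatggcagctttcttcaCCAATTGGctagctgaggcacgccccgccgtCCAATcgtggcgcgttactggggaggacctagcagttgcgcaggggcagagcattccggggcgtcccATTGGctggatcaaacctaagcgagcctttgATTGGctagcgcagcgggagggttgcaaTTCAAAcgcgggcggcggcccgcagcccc
CCAAT occurs 6 times in it on either strand, at 228, 186, 183, 155, 88 and 57 bases before the start, those at 186 and 183 overlapping. Of 27025 RefSeq promoter windows of this length, 34.5% hold CCAAT, 16.3% hold TTTGAA and 5.73% hold both. Of the 17 G2/M genes with a window, 15 hold CCAAT and 7 hold TTTGAA, all 7 with both. A match is a description of the letters only.

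At an r of 0.4 or more in both lines, a pair of neighbours moved together with no other gene measured for pairs. The metallothioneins Mt1 and Mt2, small metal-binding proteins whose genes lie 5.514 kb apart on chromosome 8, correlated by 0.631 in R1 and 0.670 in IB10, and Mt2 was the 1 partner of Mt1 at 0.3 in both lines. Mt1 ran from 0 through 2.01 to 13.1 counts per 10000 in R1 and from 0 through 1.33 to 11.5 in IB10, and Mt2 from 0 through 3.55 to 24.4 and from 0 through 2.27 to 15.6. Metallothionein genes are known to respond to metal through metal response elements, so both promoters are shown, at chr8:94178839-94179088 for Mt1 and chr8:94172368-94172617 for Mt2 (RefSeq, GRCm38.p6, plus strand, 250 bases before the start). Capitals mark the core TGCACNC or TGCGCNC on either strand.
Mt1 promoter: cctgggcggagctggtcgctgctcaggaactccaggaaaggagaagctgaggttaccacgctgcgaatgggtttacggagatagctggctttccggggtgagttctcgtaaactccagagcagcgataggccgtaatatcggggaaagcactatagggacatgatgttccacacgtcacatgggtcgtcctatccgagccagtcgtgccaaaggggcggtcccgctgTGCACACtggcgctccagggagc
Mt2 promoter: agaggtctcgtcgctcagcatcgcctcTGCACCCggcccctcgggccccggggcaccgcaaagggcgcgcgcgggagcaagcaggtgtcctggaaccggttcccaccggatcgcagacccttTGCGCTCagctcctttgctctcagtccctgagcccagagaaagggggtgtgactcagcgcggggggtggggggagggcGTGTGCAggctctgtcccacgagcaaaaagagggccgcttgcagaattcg
The Mt1 window holds 1 core, at 23 bases before the RefSeq start, and the Mt2 window 3, at 223, 128 and 50. GENCODE places the gene starts at 94179082 for Mt1 and 94172664 for Mt2. The counts of cores therefore hold for these RefSeq windows only, and windows from other starts were not searched. Among the 27025 windows 21.3% hold at least 1 core and 5.19% hold 2 or more.

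Stress and growth programmes gave smaller groups. Mdm2 and Trp53inp1, both targets of p53, correlated by 0.643 and 0.617, and 7 of 36 pairs of the p53 list reached 0.3, beside 0.0744% of all pairs. With wells thinned to 6000 counts this pair had 0.297 in the line nearer 0. The cell cycle inhibitor Cdkn1a had a CV of 101% and 99.0% and Mdm2 of 76.3% and 106%, and 5 of 9 measured targets reached 50%, beside 8.11% of all genes. Mdm2 ran from 0 through 1.27 to 9.41 counts per 10000 in R1 and from 0 through 1.10 to 9.80 in IB10. Of the glycolysis pairs, 19 of 91 reached 0.3, Ldha went with Pgk1 by 0.65 and 0.55 and with Aldoa by 0.58 and 0.42, and 4 of 14 genes reached a CV of 50%, beside 8.11% of all genes, with a median CV of 40.1% in R1 and 36.9% in IB10. These were the glucose carriers Slc2a1 (94.0% and 88.6%) and Slc2a3, the lactate carrier Slc16a3 and Pfkp. The glycolysis score went with that of the hypoxia response (0.582 and 0.649), and those of the ATF4 amino acid response and of cholesterol synthesis went with each other (0.392 and 0.386). Gpx4, which detoxifies lipid peroxides, correlated with the uridine enzyme Upp1 by 0.591 and 0.599 (0.237 in the line nearer 0 with wells thinned), and Gpx4 with the core factor Sox2 by 0.36 and 0.33.

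Of 7 measured Nodal and Activin genes, 4 reached a CV of 50% in both lines, beside 8.11% of all genes. None of the 21 pairs of this list, nor of the 21 pairs of the FGF and ERK list, reached 0.3 in both lines, where 0.0744% of all pairs did. Lefty1, a secreted inhibitor of Nodal, had 845 and 750 CPM in primed cells, 36.0 and 18.2 in LIF_2i and 171 and 113 in rosette_LIM (log2 4.96 ± 0.17 and 2.51 ± 0.15, edgeR adjusted p = 8.31e-12 and 3.47e-09). Its wells ran from 0 through 5.61 to 36.8 counts per 10000 in R1 and from 0 through 4.55 to 42.0 in IB10, with CVs of 95.9% and 115%. Lefty2 had 86.7% and 82.1% and correlated with Lefty1 by 0.28 and 0.30, just short of a call. Nodal itself had 157% in R1, 59.3% without its top well, and 81.0% in IB10. Among 7 FGF and ERK feedback genes, Spry4 (124% and 101%), Dusp6 (69.8% and 76.9%) and Spry2 (58.7% and 51.6%) reached 50%. In level, 5 of 9 Nodal and Activin genes and 7 of 10 FGF genes were higher than in LIF_2i, and 2 of each were lower (edgeR), beside 18.4% and 19.9% of all genes. Of the immediate early genes, which cell handling can switch on, 3 were measured, and Btg2 and Klf6 (65.5% and 91.0%) reached 50%.

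The 8 most negative pairs were of 3 kinds. Besides the Dnmt3b pairs, loci of the set above ran against ribosomal protein genes (Gm10785 and Rps14, −0.485 and −0.436; A630089N07Rik and Rps23, −0.428 and −0.431). In R1 both loci were highest in well 55. Without the well that weighed most in each line, Gm10785 and Rps14 had −0.391 in R1 and −0.422 in IB10. A630089N07Rik and Rps23 then had −0.305 and −0.419. The nucleolin gene Ncl ran against Rpl39 (−0.558 and −0.526) and Lars2 (−0.471 and −0.554), and Lars2 ran against Eef2 (−0.426 and −0.561) and mtCo1 (−0.489 and −0.422). Lars2 is a locus whose counts may include ribosomal RNA. Standardized counts of these genes also moved with the total of the well: the r with its log total was 0.394 and 0.603 for Ncl, 0.473 and 0.627 for Eef2, −0.385 and −0.595 for Rpl39 and −0.467 and −0.661 for Lars2. The part of well size in these pairs was not tested. With wells thinned to 6000 counts, A630089N07Rik and Rps23 had an r of −0.241 and Eef2 and Lars2 of −0.294 in the line nearer 0.

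**Figure D5:**
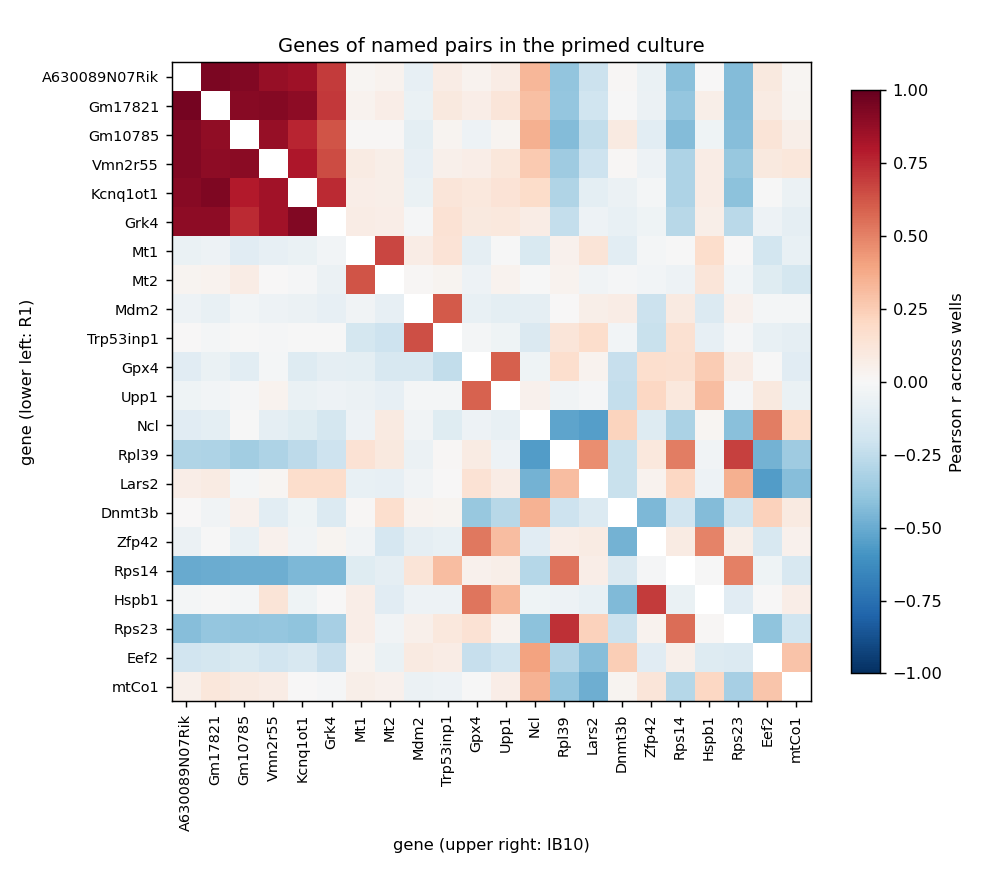
Pearson's r across wells (colour, −1 to 1) between genes of the closest pairs outside mitochondrial, ribosomal protein and phase genes and of the most negative pairs, with R1 below the diagonal and IB10 above it. The block at the top left holds the loci around A630089N07Rik, up to 0.956, and Dnmt3b is negative with Zfp42 and Hspb1 in both lines.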

How the data were processed

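Transcripts of single sorted cells were counted in 6 libraries (2 lines, 3 cultures). The authors deposited expected counts per gene and well: all 1297 distinct values match, to 2 decimals, the collision-corrected number of molecules behind some whole number of UMIs seen (6 bases, 4096 kinds), and this correction added 1.32% (R1) and 1.49% (IB10) to the primed libraries. BWA and mm10/GRCm38 are named per the submitters' processing notes; the aligner's version and the annotation were not given in the sources used here. Of 19623 rows, 91 are ERCC spike-ins, kept out of totals and tests. The members, gene lists and tests were chosen with earlier results of these data known, and the blocks of genes described were formed after their values were seen.

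Counts over the kept wells of each library were summed, rounded and tested with edgeR 4.0.16 in R 4.3.3 (quasi-likelihood test, TMM, minimum count 10, culture and line as terms over all 6 libraries, biological coefficient of variation 0.104), two-sided, Benjamini-Hochberg over 12078 genes, threshold 0.05. Line is a block because same-numbered libraries come from the same line; the difference of IB10 from R1 had an r across genes of 0.208 between primed_4d and LIF_2i, 0.0843 between primed_4d and rosette_LIM and 0.152 between the others. Spread was tested with limma 3.58.1 on log2(squared CV + 0.05) with genes at a mean of 0.5 or more thinned counts. Within the primed culture no test was run: the CV is from the excess of variance over the mean (call at 50% in both lines), and r from Pearson residuals with an overdispersion parameter of 10 (call at 0.3 in both lines). Coordinates are from GENCODE M21 and promoters from RefSeq.

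Genes named are the 5 markers, the 15 most abundant (and 15 outside mitochondrial and ribosomal protein genes), the 20 most and 10 least variable, the 12 closest pairs (and 12 outside mitochondrial, ribosomal protein and phase genes), the 8 most negative pairs (a gene in at most 3 pairs of a set), and up to 4 most variable members of each of 28 lists; other list members named were chosen after their values were seen. Some results that fall under this rule are not reported here. Alternatives were DESeq2 1.42.0, all wells, no filter, no block, each library left out, a minimum of 10000 counts, leaving out the 5% of wells with most counts (in place of a doublet caller), other size factors, thinning, another offset or minimum in the spread test, log2 values and regression on phase scores. Python 3.11.15 and numpy 2.4.6 were used. The edgeR and limma calls, the CV estimate and its call, and the call of positive pairs were tested on simulated data.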

Additional observations from a re-analysis of the deposited data

Results flagged for a closer look

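The 102 primed wells below the minimum of 6000 counts, which enter no comparison above, held 140266 counts in all, and 4 of the 5 markers were still seen in them. Pou3f1 stood at 92.7 CPM (13 counts), Dnmt3b at 321 CPM (45 counts), Lef1 at 114 CPM (16 counts) and Cldn6 at 114 CPM (16 counts). In the 32 LIF_2i wells below the minimum, with 59873 counts, the same genes stood at 0, 50.1 (3 counts), 33.4 (2 counts) and 0 CPM, where 3 counts correspond to 50.1 CPM. Fgf5 had 0 counts in both, which allows up to 21.4 CPM in the primed wells. In R1 the wells below the minimum held 51.0 CPM of Pou3f1 and 306 of Dnmt3b, against 254 and 873 CPM in the kept wells, and mitochondrial rows made up 10.2% of their counts. These values cover counting error only, and why the levels differ from the kept wells was not tested.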

How the results depend on the processing

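The 374 variable genes became 611 with wells thinned to 6000 counts and stayed between 318 and 422 under the other settings. The 2629 positive pairs became 228 with thinning and 4994 with log2 values. The 326 negative pairs became 25 with thinning, 162 with well sizes from all but the 50 most abundant genes and 191 with sizes from all but ribosomal RNA, a setting added after seeing the data, as were leaving out the top well of a gene or pair and leaving out R1 well 55. DESeq2 called 1338 higher and 1453 lower against LIF_2i, and 1217 and 1483 against rosette_LIM, where edgeR called 2226, 2400, 2089 and 2337. Leaving out each library in turn gave 1336 to 2713 higher and 1560 to 2788 lower genes against LIF_2i, and 1523 to 2046 and 1897 to 2268 against rosette_LIM. With no replicate block for line edgeR called 1869 higher and 2072 lower against LIF_2i and 1748 and 2042 against rosette_LIM, and limma called 0 genes in spread. In spread, unthinned counts gave 5 higher genes against LIF_2i and 1 against rosette_LIM, and a mean of 2 thinned counts or more gave 1 in each, Rps4y2 (limma adjusted p = 0.0196 and 0.0211). Apart from those where fewer wells, genes or counts enter, the cause of these shifts was not tested. Marker levels kept their direction and call in 100 of 100 values. The CV of the 20 most variable genes stayed at 50% or more in 139 of 140 values (Tex19.1 was at 0% in 1 line when thinned). Without the 5% of wells with most counts, 17 of the 20 met the call, which also needs a mean of 1 count. The lowest CV of these genes in that setting was 105%. The r of the named pairs kept its call in 229 of 234 values. The 5 others, with thinning, were Mdm2 and Trp53inp1 (0.297), Gpx4 and Upp1 (0.237), Dnmt3b and Zfp42 (−0.178), A630089N07Rik and Rps23 (−0.241) and Eef2 and Lars2 (−0.294). Depth limits the rest: 4610 of 19532 genes could be measured for spread and 2659 for pairs.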

Other observations

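Imprinted genes, expressed from 1 parental copy, were higher and uneven in the primed culture: 13 of 14 tested were higher than in LIF_2i and 12 higher than in rosette_LIM (edgeR), with 0 lower, beside 18.4% and 17.3% of all genes. Meg3, a maternal long RNA, had 919 CPM in R1 and 723 in IB10 against 194 and 140 in LIF_2i (log2 2.32 ± 0.12, edgeR adjusted p = 6.79e-10), and its wells ran from 0.217 through 7.02 to 34.2 counts per 10000 in R1 and from 0 through 5.70 to 38.6 in IB10. Cdkn1c had 76.8 and 104 CPM against 4.55 and 3.98 (log2 4.42 ± 0.25, edgeR adjusted p = 2e-09). Of 9 measured, 6 reached a CV of 50% in both lines, beside 8.11% of all genes, among them Grb10 (111% and 102%) and Peg10 (71.2% and 98.4%). Of the 36 pairs of the list, 1 reached 0.3 in both lines, beside 0.0744% of all pairs. Snrpn was at 0.

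Anterior HOX genes were rare, at 0 in 43 of 104 R1 wells and 87 of 170 IB10 wells. Of 5 tested, 4 were higher than in LIF_2i and 5 higher than in rosette_LIM (edgeR), beside 18.4% and 17.3% of all genes. Together the 7 listed genes had 68.9 CPM in R1 and 38.1 in IB10, and Hoxb1, at 11.4 and 7.80 CPM in primed cells, was at 0 in the 4 other libraries. In R1 1 well (number 102, 61877 counts) held 23.5 HOX counts per 10000, where the next well held 1.87, while the highest IB10 wells held 4.79 and 4.24, and 1 well held 85.2% of the R1 counts of Hoxb2. Of 4 measured germline genes that are known to be silenced by DNA methylation, all 4 reached a CV of 50% in both lines, beside 8.11% of all genes: Tex19.1 (at 0% in 1 line with wells thinned to 6000 counts), Hormad1 (144% and 79.0%), Mael (90.3% and 94.1%) and Sycp3 (63.8% and 66.6%). The methylation cofactor Dnmt3l had 116% and 85.2% and correlated with Hspb1 by 0.61 and 0.51.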
